A study of Gallus gallus with 2 samples.

Results

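The 10 genes described here cover the ileal handling of bile acids and the FGF19 feedback that starts in the same cells. Their probe sets were found by symbol or alias in the array annotation: SLC10A2, FABP6, SLC51A, SLC51B, NR1H4, FGF19, NR0B2, NR5A2, FGFR4 and KLB. All 10 were found, with 15 probe sets, among 13008 named genes with 27166 probe sets. The ileal RNA came from White Leghorn male chicks that were 3 wk old. The paddy rice group had eaten a diet with 650 g/kg of paddy rice for 2 wk, and the control group a diet with 650 g/kg of corn. Each group held 9 birds, and total RNA of 3 birds was pooled for 1 GeneChip Chicken Genome Array per diet. The authors picked these birds by ileal MUC2 expression close to their group's average, and crude protein and metabolizable energy were not equal between the diets. By the paper's analysis of the grains, paddy rice also held less crude fat and more crude fiber than corn. A single pool per diet gives no error between replicates and allows no test, and the number of arrays limits the precision. Every ratio below is the signal of the paddy rice pool over that of the corn pool, where a signal is the summary of a group of short probes, called a probe set. The study counted genes above 1.5 or below 0.67, and the same thresholds are used here. Among all chicken probe sets 5520 were above 1.5 and 5696 below 0.67, far more than the paper counted, and its text names no further filter. Being past a threshold here therefore does not mean being on the paper's list.

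Bile acids are made in the liver, act on fat in the small intestine, and are for the most part taken back in the ileum. SLC10A2, the apical sodium-dependent bile acid transporter, carries them into the enterocyte, FABP6 binds them in the cytosol, and the SLC51A and SLC51B subunits together export them across the basolateral membrane. Inside the cell bile acids activate the nuclear receptor NR1H4 (FXR). In mammals the genes that FXR induces include NR0B2 (SHP), a repressor, and the hormone FGF19, and also FABP6, SLC51A and SLC51B. FGF19 lowers bile acid synthesis in the liver through the receptor FGFR4 with its coreceptor KLB (beta-Klotho).

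FGF19 and NR0B2 had the highest ratios of the 10 genes, while uptake, binding and the receptor NR1H4 lay near 1. By the brightest probe set of each gene, FGF19 (ratio 1.55) and NR0B2 (1.51) were above 1.5, none was below 0.67, and the other 8 genes lay between 0.841 and 1.34. Thus 2 of 10 genes were above 1.5, where 8.27% of all 13008 named genes were, and 8.57% of them were below 0.67. All 10 genes reached the median signal of chicken probe sets with their brightest probe set, and of the 9240 named genes that did so 1.87% were above 1.5 and 1.71% below 0.67. Of the 10 genes, 8 had a ratio above 1, against 49.3% of those 9240 genes. The median log2 ratio was 0.13 over the 10 genes and -0.003 over the 9240. These shares describe a single pair of pools, and the 10 genes were chosen with earlier results of these data known. The 10 genes belong to 1 pathway, so their ratios are not independent of each other.

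**Figure D1:**
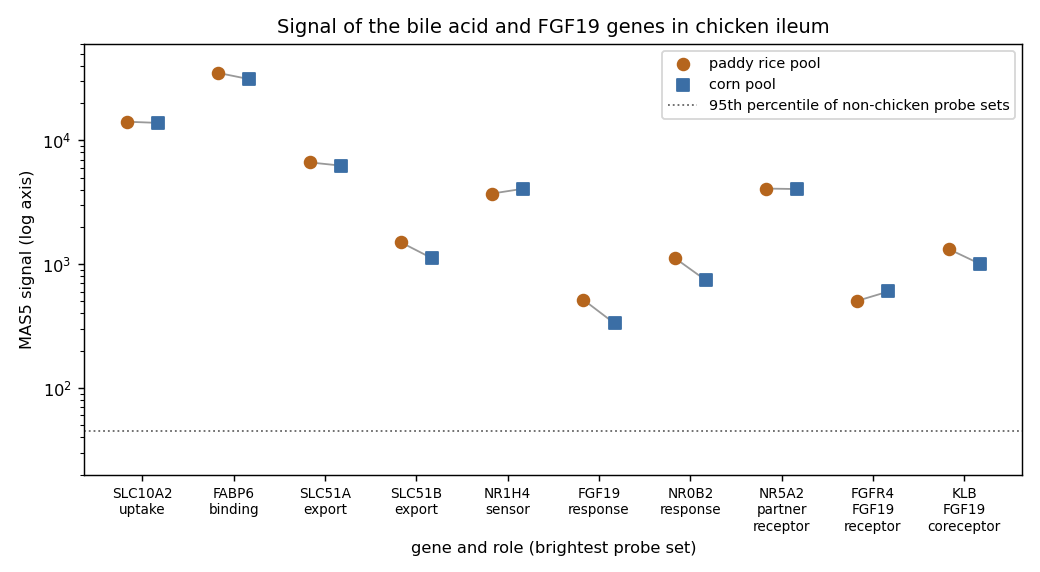
MAS5 signal (log axis) of the brightest probe set of each gene in the paddy rice pool (circles) and the corn pool (squares), 1 array each, with a line joining the pools; the dotted line is the 95th percentile of probe sets that are not chicken, 45.1 on paddy rice and 44.1 on corn, drawn at the higher. The lines slope most for FGF19 (515 and 332) and NR0B2 (1122 and 741), and every point lies above the dotted line.

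FGF19, the hormone of the feedback, had a signal of 515 in the paddy rice pool and 332 in the corn pool, a ratio of 1.55 and a log2 ratio of 0.63. It was read by 1 probe set, which ranked 9484 of 37693 chicken probe sets by signal on paddy rice and 12022 on corn. Chicken probe sets were split by mean log2 signal into 4 bands of equal size, called low, lower-middle, upper-middle and high. FGF19 lay in the upper-middle band, where 4.33% of 9423 probe sets were above 1.5 and 4.93% below 0.67, and 324 of them (3.44%) had a higher ratio than FGF19. Probe sets of the same gene scattered about their gene's mean in this band with an SD of 0.35 on the log2 scale (1489 genes with several probe sets). The log2 ratio of FGF19 was larger than that spread, but FGF19 is also the highest of the 10 genes and was read by 1 probe set. The SD of all log2 ratios in the band was 0.37. Probe sets of the same gene thus agreed hardly better than the band at large. The SD of 0.35 gives the disagreement between probes on one pair of pools and not the spread between birds, which was not measured on the arrays.

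NR0B2, the repressor that FXR induces in mammals, had a signal of 1122 in the paddy rice pool and 741 in the corn pool. Its ratio of 1.51 (log2 ratio 0.60) was only just past the threshold. Its single probe set ranked 5495 on paddy rice and 7589 on corn, within the high band. In that band 0.647% of 9424 probe sets were above 1.5 and 0.509% below 0.67, and 56 had a higher ratio than NR0B2. The SD between probe sets of a gene was 0.16 there (1663 genes), well under the log2 ratio of NR0B2. NR0B2 lay at the 82.9th percentile of signal, in the dimmer part of the band. In the band below the SD was 0.35, so 0.16 may be too small at the signal of NR0B2. The log2 ratios of FGF19 and NR0B2 differed by 0.04. That is less than either SD, so with 1 probe set each it does not show how alike the 2 genes were. Adding the 25th percentile of all signals (34.5) to each signal, which shrinks the ratios of low signals most, put FGF19 at 1.499 and NR0B2 at 1.49, so both calls are lost under that setting.

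The receptor NR1H4 did not share these ratios. The brightest of its probe sets had a signal of 3717 in the paddy rice pool and 4066 in the corn pool, a ratio of 0.914, and its second probe set had 188 and 202, a ratio of 0.930. Both probe sets were thus slightly lower on paddy rice. In the high band 21.5% of probe sets had a lower ratio than the brightest one, so its ratio lay inside the usual range of that band. It lay at the 95.9th percentile of signal, and ratios scatter less as the signal rises. The share may therefore be too large for it. The log2 ratio of FGF19 was 0.76 above that of NR1H4, and the log2 ratio of NR0B2 was 0.73 above it.

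NR5A2 (LRH-1) is a nuclear receptor that drives genes of bile acid synthesis in mammals and is itself held back by NR0B2. Its brightest probe set had a signal of 4078 in the paddy rice pool and 4042 in the corn pool, a ratio of 1.01. The second probe set had 489 in the paddy rice pool and 589.6 in the corn pool, a ratio of 0.829. The probe sets of NR5A2 therefore lay on either side of 1, and neither was past a threshold.

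**Figure D2:**
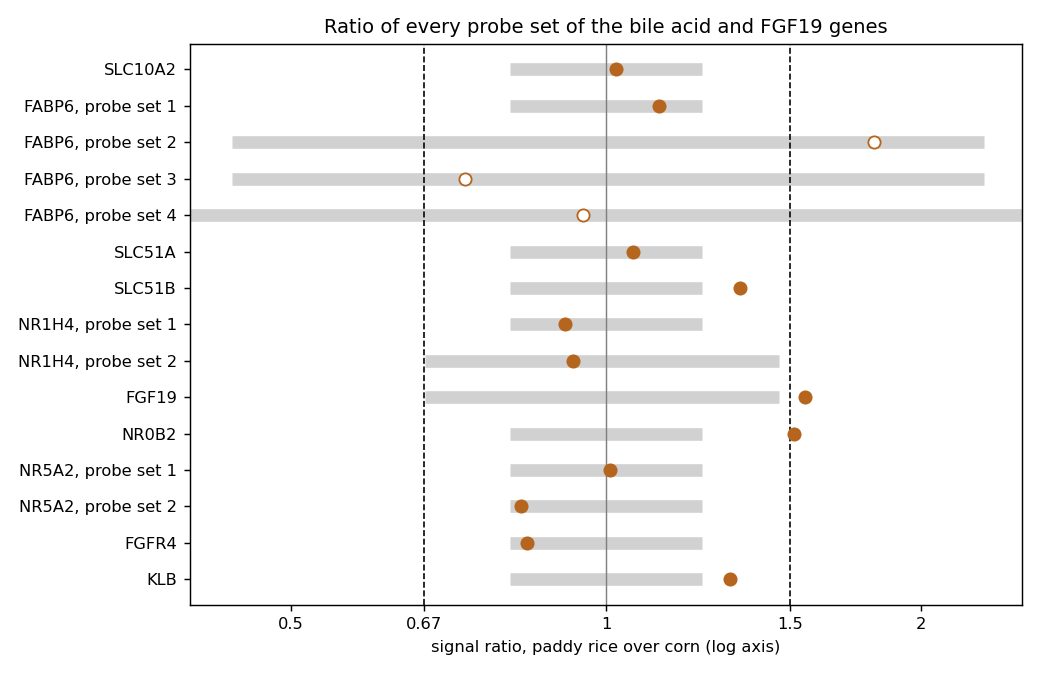
Signal ratio of paddy rice over corn (log axis) for all 15 probe sets, with open circles for probe sets below the median signal and grey bars from the 5th to the 95th percentile of ratios of all chicken probe sets in the same band of signal; the dashed lines are 0.67 and 1.5. FGF19, NR0B2, SLC51B and KLB lie to the right of their bars (upper ends 1.46 for FGF19 and 1.23 for the others), and the bar of the dimmest FABP6 probe set (0.115 to 8.79) runs off the axis.

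The ratios of uptake and binding lay near 1. SLC10A2 had a signal of 14136 in the paddy rice pool and 13832.5 in the corn pool, a ratio of 1.02. Its probe set ranked 263 on paddy rice and 268 on corn among 37693, and 40.7% of probe sets in the high band had a higher ratio. FABP6, the ileal bile acid binding protein, had a signal of 35027 in the paddy rice pool and 31195 in the corn pool by its brightest probe set, with a ratio of 1.12. That probe set ranked 5 on paddy rice and 17 on corn, and 14.6% of the high band had a higher ratio. It lay at the 99.98th percentile of signal, in the brightest part of the band. Ratios scatter less as the signal rises, so the share among equally bright probe sets may be smaller. A rank says how far a probe set stands above the rest of the array and depends on its probes, so it does not order the genes by amount of transcript.

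The other 3 probe sets of FABP6 were near the level of probe sets that are not chicken (45.1 on paddy rice and 44.1 on corn, their 95th percentile). Their signals were 55.4 in the paddy rice pool and 30.7 in the corn pool on the first, 33.0 and 45.0 on the second, and 30.4 and 32.0 on the third. The ratios were 1.80, 0.733 and 0.951 and ran in both directions. The ratio of 1.80 is the only one past a threshold among the probe sets that are not the brightest of their gene, so 3 of 15 probe sets were above 1.5 and none below 0.67. Over all chicken probe sets 14.6% were above 1.5 and 15.1% below 0.67, and in the lower-middle band, which holds the probe set at 1.80, 17.8% were above 1.5 and 19.3% below 0.67. At that signal a ratio of 1.80 was exceeded by 10.2% of probe sets, and it was not counted as a change of FABP6. The brightest probe set of FABP6 is marked by its identifier as reading more than 1 transcript form, and so is the probe set of SLC51B.

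The export subunits had unequal ratios. SLC51A had a signal of 6637 in the paddy rice pool and 6253 in the corn pool, a ratio of 1.06. SLC51B had 1501 in the paddy rice pool and 1118 in the corn pool, a ratio of 1.34 and thus under the threshold. In the high band 173 of 9424 probe sets (1.84%) had a higher ratio than SLC51B, against 27.6% for SLC51A. The log2 ratio of SLC51B was 0.34 above that of SLC51A. The SD of 0.16 at this signal is that of single probe sets about the mean of their gene, and a difference between 2 probe sets has a larger SD. Each subunit was read by 1 probe set, so the difference rests on a pair of probe sets.

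The receptor side of FGF19 was also measured in the ileum, where it is not the site of the feedback on synthesis. FGFR4 had a signal of 506 in the paddy rice pool and 602 in the corn pool, a ratio of 0.841. KLB had a signal of 1324 in the paddy rice pool and 1007 in the corn pool, a ratio of 1.31. The ratios of receptor and coreceptor thus lay on opposite sides of 1, with a difference of 0.64 on the log2 scale, and neither was past a threshold. In the high band 8.14% of probe sets had a lower ratio than FGFR4 and 2.29% a higher ratio than KLB. FGFR4 lay at the lower edge of that band, at the 75.8th percentile of signal, and KLB at the 85.8th. In the band below, the SD between probe sets of a gene was 0.35, and the log2 ratio of FGFR4 (-0.25) was smaller than that. FGFR4 and KLB were read by 1 probe set each, and a difference between 2 probe sets has a larger SD.

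**Figure D3:**
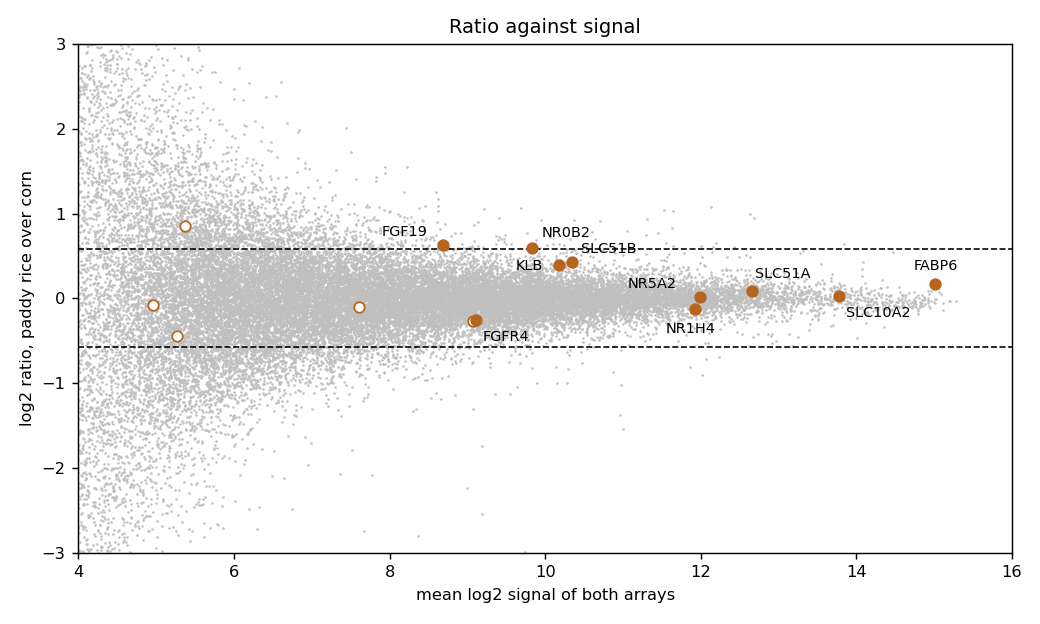
Log2 ratio of paddy rice over corn against the mean log2 signal of both arrays for all chicken probe sets (grey; the axes leave out the faintest and most extreme), with the brightest probe set of each of the 10 genes filled and named and their other probe sets open; the dashed lines are the thresholds of 0.67 and 1.5. The grey cloud narrows as the signal rises, and FGF19 and NR0B2 lie on its upper edge just above the dashed line.

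A bulk ratio cannot tell fewer cells of a type from less RNA per cell, so markers of the cells that carry these genes were read on the same arrays. By their brightest probe sets the 7 measured enterocyte genes had ratios between 0.902 and 1.09, 6 of them below 1. Their summed signal was 108204 in the paddy rice pool and 113133 in the corn pool. Of the 5 genes measured as markers of the distal small intestine and hindgut, 3 reached the median signal. The hormone gene NTS was at 2894 in the paddy rice pool and 2739 in the corn pool (ratio 1.06), GCG, the proglucagon gene, at 5062 and 5030.4 (ratio 1.01), and the homeobox gene HOXA13 at 1724 and 1927 (ratio 0.895). HOXD10, below the median signal, had a ratio of 0.388, with a signal of 46.5 in the paddy rice pool and 119.9 in the corn pool. HOXD13, also below the median, had a ratio of 1.11. The summed signal of the 5 genes was 9760 in the paddy rice pool and 9845 in the corn pool. Of the 6 genes used as markers of the proximal small intestine, 4 reached the median signal. APOA4, an apolipoprotein gene, was lower on paddy rice with a ratio of 0.494, and so was the calbindin gene CALB1 with 0.344, while FABP1 was at 0.912 and CYBRD1 at 1.04. GATA4, below the median signal, ran the other way with a ratio of 7.997. Its signal was 51.8 in the paddy rice pool and 6.48 in the corn pool. The corn value was under the level of probe sets that are not chicken (44.1). SLC40A1, also below the median, had a ratio of 1.002. The summed signal of these 6 genes was 43631 in the paddy rice pool and 50344 in the corn pool. The paper itself lists APOA4 and CALB1 among the notable genes downregulated in its paddy rice group, so with these genes diet and position cannot be told apart. Whether the position of the segment along the gut had a part in the ratios of the bile acid genes was not tested. The 4 smooth muscle genes measured lay between 0.956 and 1.05, and the 5 leukocyte genes between 0.936 and 0.984. Of the pancreas genes, none of the 3 measured reached the median signal, and of 6 liver genes only TTR did (ratio 0.781). The ratio of the 3' over the 5' signal of ACTB, a sign of RNA quality, was 1.52 on paddy rice and 1.51 on corn.

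The wider pathway was followed in 5 lists with 79 genes, of which 68 were measured and 54 reached the median signal. Of these 54, ABCB1 and FGFBP1 were above 1.5 and CYP2W1 was below 0.67, beside 1.87% and 1.71% of named genes at such signals. The lists were chosen with earlier results of these data known, so the shares are a description only. Without a limit on signal 10 of 68 were above 1.5 and 5 below 0.67, beside 8.27% and 8.57% of all 13008 named genes. Of these 15, 12 had a signal below the median. The median log2 ratio of the 54 genes was 0.04, and 29 of them had a ratio above 1, beside 49.3% of the 9240 named genes at such signals. The same share stands beside the counts above 1 in the lists below.

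The genes of bile acid synthesis, which act mostly in the liver, showed no ratio past a threshold among the 10 that reached the median signal. Their ratios lay between 0.939 and 1.34, 8 of them above 1, with a median log2 ratio of 0.12. Within the high band, BAAT, which conjugates bile acids with taurine or glycine, had a ratio of 0.939. The peroxisomal genes of side chain shortening were at 1.07 for AMACR, 1.11 for ACOX2, 0.981 for HSD17B4 and 1.06 for SCP2 by their brightest probe sets. The second ACOX2 probe set that reached the median signal was at 0.691, and such probe sets of SCP2 ran from 0.902 to 1.06. AKR1D1, a steroid reductase of the pathway, was at 1.15 and the cholesterol hydroxylase CYP46A1 at 1.05. The genes of the rate-limiting and the branch-setting steps of the liver lay below the median signal. CYP7A1, the first enzyme of the classical route, had a signal of 4.62 in the paddy rice pool and 1.70 in the corn pool, under the level of probe sets that are not chicken. CYP8B1, the sterol 12-alpha-hydroxylase, had 122 in the paddy rice pool and 77.2 in the corn pool, at the 47.4th percentile of signal.

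Of the 9 transporter genes that reached the median signal, 7 had a ratio above 1, with a median log2 ratio of 0.22, the highest of the 5 lists. ABCB1, the efflux pump P-glycoprotein, was at 9178 in the paddy rice pool and 4751 in the corn pool, a ratio of 1.93, and at 2.00 on its second probe set. The sterol half-transporter ABCG5 was at 1.30, and its partner ABCG8, named after its value was seen, was at 1.32. The organic anion pumps ABCC4 and ABCC3, which in mammals can carry bile acids out of cells, were at 1.16 and 0.951. SLCO2B1, an organic anion uptake carrier, was at 1.16 and SLC10A7, a relative of SLC10A2, at 1.07. Probe sets that reached the median signal ran from 1.16 to 1.37 for SLCO2B1, from 1.07 to 1.32 for SLC10A7 and from 1.10 to 1.16 for ABCC4. ABCB11, the bile salt export pump of the liver, was under the level of probe sets that are not chicken on both arrays, at 7.57 in the paddy rice pool and 4.01 in the corn pool.

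Among the nuclear receptors and cofactors, none of the 13 that reached the median signal was past a threshold by its brightest probe set, and 9 had a ratio below 1. VDR, which binds vitamin D and in mammals also the bile acid lithocholic acid, had the lowest ratio with 0.709, with a signal of 490.2 in the paddy rice pool and 692 in the corn pool. RXRA, the dimer partner of NR1H4, was at 0.863 by its brightest probe set, but at 1.55 on the other probe set that reached the median signal. The other receptors lay closer to 1 by their brightest probe sets. Their ratios were 0.966 for the oxysterol receptor NR1H3, 1.06 for HNF4A, 1.04 for the xenobiotic receptor NR1I3 and 0.919 for PPARA. Probe sets that reached the median signal ran from 0.931 to 1.06 for HNF4A and from 0.896 to 1.36 for PPARA. CDX2, the intestinal identity factor, was at 0.902, but its 3 probe sets that reached the median signal ran from 0.818 to 1.47. The cofactors NCOA1, NCOR1 and SIRT1 were at 1.06, 0.959 and 0.983. For NCOR1 the 5 probe sets that reached the median signal ran from 0.749 to 1.31.

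In FGF signalling, FGFBP1, a carrier that releases fibroblast growth factors from the matrix, had a ratio of 2.04, with a signal of 4581 in the paddy rice pool and 2245 in the corn pool. The other 12 genes of that list that reached the median signal ran between 0.847 and 1.28 by their brightest probe sets. The lowest of these is FGFR2, a fibroblast growth factor receptor named after its value was seen, and its 4 probe sets that reached the median signal ran from 0.847 to 1.84, so they disagree in direction. In the list of conjugation and detoxification genes, the cytochrome P450 gene CYP2W1 was at 165 in the paddy rice pool and 252 in the corn pool, a ratio of 0.655, and the other 8 genes that reached the median signal ran between 0.737 and 1.48.

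**Figure D4:**
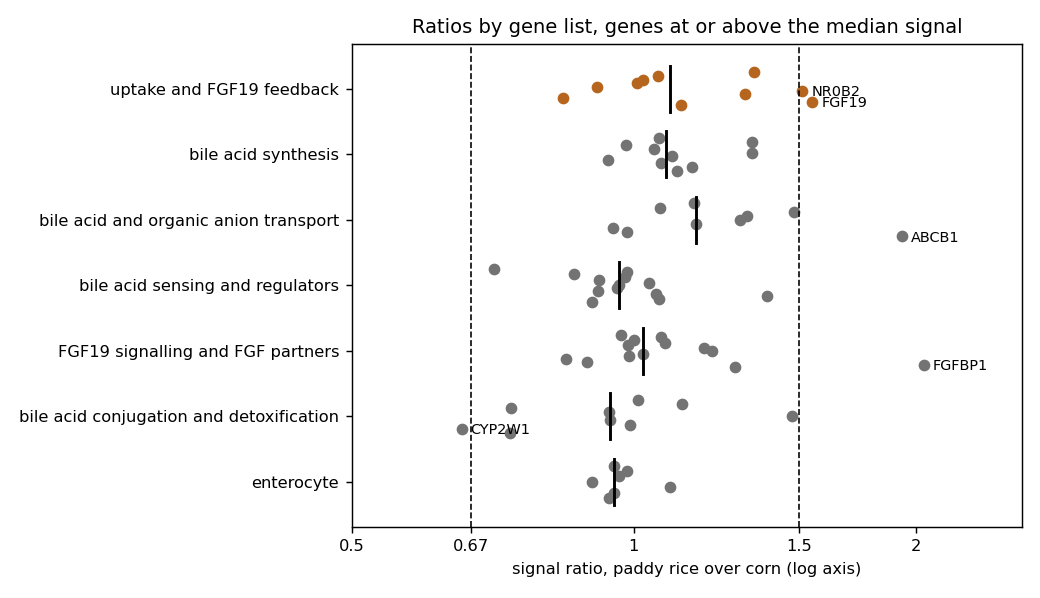
Signal ratio of paddy rice over corn (log axis) of each gene's brightest probe set, for genes that reached the median signal, by list; each point is a gene, black bars are list medians, dashed lines are 0.67 and 1.5, and genes past a threshold are named. Past 1.5 lie FGF19 and NR0B2 of the uptake and feedback genes, ABCB1 of the transporters and FGFBP1 of the FGF partners, and the enterocyte genes stay between 0.902 and 1.09.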

How the data were processed

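Total RNA of 3 birds per diet was pooled and hybridised to 1 array each. The authors computed MAS5 signals, and the deposited table gives these intensity values for every probe set, linear and already scaled: with 2% of values trimmed from either end, both arrays averaged 500.1. Detection calls were not used here. Raw probe data were not analysed here, so signals near background could not be judged by probe.

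Ratios were taken over 37693 chicken probe sets with no further scaling. Of these, 27166 had 1 gene in the platform annotation, which can be old, 177 had several and 10350 none. Current symbols came from RefSeq (assembly GRCg7b) by Entrez identifier for 26851 of them. No coordinates or sequences were used. A gene takes the value of its brightest probe set, by mean log2 signal. The 4 bands of signal were set by the same mean, with the median at 111 and the 75th percentile at 522. The level of background was the 95th percentile of 689 probe sets that are not chicken.

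The members, lists and thresholds were chosen with earlier results of these data known. The genes named are all 10 members, list members past a threshold at or above the median signal, members of the synthesis, transport and sensing lists at or above the 75th percentile, and markers. Other lists were matched by current symbol only, a choice made after the files were seen. The likeness of other genes to the members was not ranked, since 1 ratio per gene gives no pattern. Calls and scalings were tested on simulated data. Python 3.11.15, numpy 2.4.6, pandas 2.3.3, statsmodels 0.14.6 and matplotlib 3.10.9 were used.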

Additional observations from a re-analysis of the deposited data

How the results depend on the processing

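No paired analysis was possible because there is 1 array per diet. The alternatives were filters on low signals at the median and at the 75th percentile, 3 scalings (quantile normalization, median centring and loess centring with a fraction of 0.3), addition of the 25th percentile of signal, omission of probe sets marked as shared, the median ratio of a gene across its probe sets, and thresholds of 2 and 0.5. Median centring, quantile normalization and loess centring left 2 of the 10 genes above 1.5 and none below 0.67, and no setting put a gene below 0.67. With 34.5 added to each signal no gene and no probe set was above 1.5 (0), and likewise at a threshold of 2 (0). With the filter at the 75th percentile 1 gene and 1 probe set were above 1.5, as FGF19 was left out by construction. The log2 ratio ran from 0.58 to 0.65 for FGF19, from 0.58 to 0.61 for NR0B2, from 0.41 to 0.43 for SLC51B and from 0.38 to 0.40 for KLB over the settings that gave a value. The median log2 ratio of the members ran from 0.07 to 0.13. Probe sets marked as shared include those marked as reading more than 1 transcript form, as the brightest of FABP6 and that of SLC51B are. Without them SLC51B had no value, and FABP6 was read by a probe set near background at a log2 ratio of 0.85. That value made FABP6 the third gene above 1.5 beside FGF19 and NR0B2. Of the genes in the wider lists, 2 were above 1.5 and 1 below 0.67 with the filter at the median signal, 2 and 0 with that at the 75th percentile, 5 and 0 with 34.5 added, and 6 and 3 at thresholds of 2 and 0.5. With the median ratio across probe sets 3 were below 0.67. Shares of all named genes past a threshold are given above only for the main setting and the filter at the median. Depth of measurement is limited by 1 array per diet. Ratios below the median signal are given as values only, since 35.8% of the low band of probe sets were above 1.5. A member with 1 probe set has no second reading on these arrays.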
